A study of Rattus norvegicus with 12 samples.

Results

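The interferon response and MHC class I peptide loading were followed through 9 genes, chosen by name: Irf1, Irf7, Nlrc5, Tap1, Tap2, Tapbp, B2m, Isg15 and Ifit3. All 9 were found by symbol among the 18749 genes of the deposited count table, and all 9 passed the filter on low counts together with 15704 genes in all. The data are read counts of polyadenylated RNA from 12 samples labelled as intestine of wild-type rats, in a study of adaptation of the small intestine to total colectomy, the removal of the colon. The group postSTC (libraries 1, 2, 5 and 7) is labelled postoperative, preSTC (1, 5, 7 and 9) preoperative, and preCTC (1, 5, 7 and 9) was taken before sham surgery. The labels give no age, strain, time after the operation or meaning of STC and CTC, they place all samples in batch 1, and no group taken after a sham operation was analysed here, so operation and time cannot be told apart. Whether replicates come from separate animals is not labelled, so the p-values reflect sample-to-sample spread that could be technical.

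Interferons are cytokines that cells release on contact with viruses and microbes. Type I and type III interferons act through a complex that holds STAT2 and IRF9 on genes such as Isg15 and Ifit3, and IRF7 amplifies that arm. Interferon gamma acts through its own receptor and switches on Irf1, and IRF1 together with NLRC5 drives the genes of class I antigen presentation. In that pathway the immunoproteasome cuts proteins into peptides, the TAP1-TAP2 transporter moves the peptides into the endoplasmic reticulum, tapasin (Tapbp) holds an empty class I molecule next to the transporter, and beta-2 microglobulin (B2m) is the light chain of every classical class I molecule.

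The start regions of these genes are shown because they carry the sequence words that interferon-activated factors are known to bind. RefSeq promoters (build GRCr8, from 250 bases before to 50 after each gene's start) matched 7 of the 9 members by gene identifier. No promoter was matched for Nlrc5 and Isg15. The core of the interferon-stimulated response element was searched as GAAA, any 2 bases and GAAA again, and that of the gamma-activated site as TTC, any 3 bases and GAA, each on both strands and with overlapping matches counted. The first was present in 6 of the 7 promoters, against 3.92% of the 33469 promoters in the table, and the second in 1 of the 7 (Irf1), against 8.87%. A match is a description of letters and not evidence of binding. The windows below read 5′ to 3′ on the gene's strand, end before the start of the gene and show the matches in capitals. A match on the other strand reads as TTTC repeated.
Irf1: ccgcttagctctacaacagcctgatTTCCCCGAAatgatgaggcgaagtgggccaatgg
Irf7: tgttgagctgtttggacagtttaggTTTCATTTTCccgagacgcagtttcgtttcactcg
Tap1: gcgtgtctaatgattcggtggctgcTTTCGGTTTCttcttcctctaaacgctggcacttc
Tap2: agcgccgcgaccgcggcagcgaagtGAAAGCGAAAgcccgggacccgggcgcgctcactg
Tapbp: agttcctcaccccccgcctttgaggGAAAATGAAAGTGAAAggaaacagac
B2m: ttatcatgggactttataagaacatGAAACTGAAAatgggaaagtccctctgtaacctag
Ifit3: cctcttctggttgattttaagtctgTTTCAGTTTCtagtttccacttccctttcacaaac

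These positions are on GRCr8, while the counts were made on mRatBN7.2. The Irf1 window is chr10:38417768-38417826 on the plus strand, and its match starts 142 bases before the gene. The Irf7 window is chr1:205800058-205800117 on the minus strand, with the match 69 bases before the gene. The genes Tap1, Tap2 and Tapbp lie on chromosome 20, all on the minus strand. Their windows are chr20:4668630-4668689, chr20:4652303-4652362 and chr20:4967878-4967928, with matches that start 121, 41 and 26 bases before the gene. In Tapbp, 2 matches overlap. The B2m window is chr3:129549155-129549214 and the Ifit3 window chr1:241527257-241527316, both on the plus strand, with matches 150 and 44 bases before the gene. The start of Psmb9, an immunoproteasome subunit gene, lies 457 bases from that of Tap1 on the opposite strand.

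Libraries held 30095656 to 39374682 counts. In postSTC7, 42.1% of all counts came from 14 genes of a list of seminal vesicle and prostate genes, against 0.00319 to 0.0345% in the other 11 libraries. Levels are given as CPM, the share of a library's reads after scaling by trimmed means (TMM), and the scaling factor of postSTC7 was 0.568 against 0.970 to 1.15 elsewhere. Epithelial markers were present in every library (12 of 12 genes, summed level 8411 to 21213 CPM, lowest in postSTC7). The summed level of 8 ileal markers was 31684 to 39856 CPM in preSTC and 5111 to 10215 CPM in postSTC, but 45.1 to 89.8 CPM in preCTC. Gut region and group therefore cannot be told apart in any comparison with preCTC. Regional markers also differed between postSTC and preSTC: of 7 tested ileal markers 4 were called lower in postSTC, and of 11 colonic markers 7 were called higher and none lower (median log2 fold change 4.74). Much of the ileal sum in preSTC came from Reg3b (14316 to 19314 CPM) and Reg3g (11323.5 to 16526 CPM), genes of secreted lectins. In postSTC these 2 stood at 1586 to 3421 and 1543 to 3303 CPM. Fabp6 was 3570 to 4501 CPM in preSTC and 1409 to 3797 CPM in postSTC, with overlap. Hoxb13, a gene of the distal gut, stood at 445, 1.44, 331 and 315 CPM in preCTC1, preCTC5, preCTC7 and preCTC9, so preCTC5 lay far below the rest of its group. In preSTC it was 0.056 to 0.311 CPM, and in the postSTC libraries 92.7, 42.2, 125 and 62.8 CPM in the order 1, 2, 5 and 7. The part of this shift in the differences between postSTC and preSTC given below was not tested.

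Between genes, levels were compared per length as the authors' FPKM, in preSTC. B2m was highest at 2267 ± 124 FPKM (SD, n = 4), followed by Irf1 at 155 ± 9.64 FPKM. Tapbp (80.9 ± 4.43), Tap1 (65.4 ± 13.3), Irf7 (58.6 ± 7.49), Tap2 (50.7 ± 2.09) and Isg15 (50.2 ± 12.7 FPKM) came next, and each overlapped its neighbour in this order over the 4 libraries. Nlrc5 (3.43 ± 0.614) and Ifit3 (3.25 ± 0.853 FPKM) were lowest and overlapped each other. B2m and Irf1 did not overlap any other member.

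**Figure D1:**
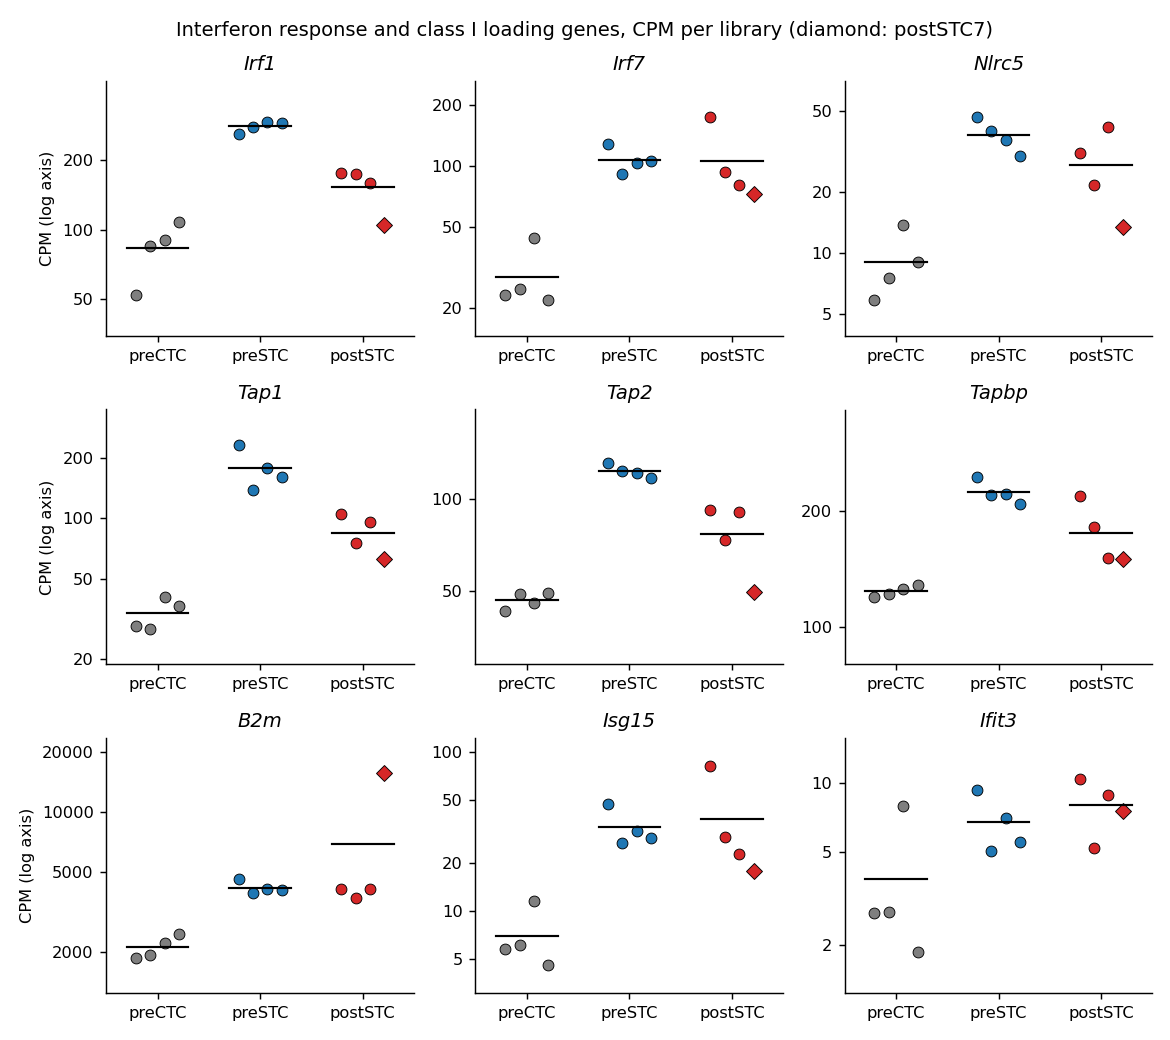
CPM of each member in each library (log axis), by group, with the line at the group mean, circles for libraries and a diamond for postSTC7. Irf1, Tap1 and Tap2 show postSTC wholly below preSTC, while Irf7, Isg15 and Ifit3 overlap between these groups, and B2m stands at 15602 CPM in postSTC7 alone.

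The first question was what changed between preSTC, before the operation, and postSTC, after it. Among the 9 members, 3 fell and none rose: the transcription factor gene Irf1 and both subunit genes of the peptide transporter, Tap1 and Tap2. The main fit held no term for the replicate number, and fits with the number are given further below. A gene was called where its p, adjusted over all tested genes by Benjamini and Hochberg's method, was under 0.05 in the quasi-likelihood test of edgeR. By that rule 18% of all tested genes were called, 6.9% lower and 11.1% higher. For the same 3 members the CPM of the groups did not overlap, as in 10.2% of all tested genes with postSTC lower. The median log2 fold change was -0.35 over the members and 0.04 over all tested genes. The genes of the Isg15 and Irf7 arm were not called, and no difference in their levels was detectable beyond the spread between libraries.

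Irf1 stood at 260, 279, 292 and 290 CPM in preSTC1, preSTC5, preSTC7 and preSTC9. Across the postSTC libraries, in the order 1, 2, 5 and 7, it stood at 176, 174, 159 and 104 CPM. All 4 postSTC libraries lay below the lowest preSTC library, and postSTC7 was the lowest. The log2 fold change was -0.87 ± 0.21 (SE, edgeR adjusted p = 0.0155). Without postSTC7 the mean of postSTC was 169 ± 9.57 CPM (SD, n = 3), against 280 ± 14.7 CPM in preSTC (n = 4).

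Tap1 showed the largest change of the 9, and 2.3% of all tested genes had a lower log2 fold change. Its level was 231, 139, 179 and 160 CPM in preSTC1, preSTC5, preSTC7 and preSTC9. The postSTC libraries, in the same order, held 105, 75.4, 96.1 and 62.7 CPM. The highest postSTC library was below the lowest preSTC library, and the log2 fold change was -1.06 ± 0.20 (SE, edgeR adjusted p = 0.00486).

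Tap2, which pairs with TAP1 in the transporter, was even among the preSTC libraries at 132, 125, 122 and 118 CPM, and was 92.2, 73.7, 91.2 and 49.8 CPM in the postSTC libraries in the same order as above. These ranges did not overlap either (log2 fold change -0.69 ± 0.16, SE, edgeR adjusted p = 0.0131). Tapbp, the tapasin gene that bridges the transporter and the empty class I molecule, had a mean of 175 ± 32.4 CPM in postSTC and 224 ± 14.8 CPM in preSTC (SD, n = 4). Its log2 fold change of -0.35 ± 0.12 did not pass (SE, edgeR adjusted p = 0.0623). postSTC1 stood at 219 CPM, inside the preSTC range, and without postSTC1 Tapbp was called lower (log2 fold change -0.47, edgeR adjusted p = 0.00744).

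Nlrc5, the transactivator of class I genes, stood at 31.2, 21.7, 41.6 and 13.4 CPM in the postSTC libraries and at 46.9, 40.0, 35.8 and 30.03 CPM in preSTC (log2 fold change -0.50 ± 0.33, SE, edgeR adjusted p = 0.310). The groups overlapped, and the postSTC libraries spread about their mean with an SD of 12.2 CPM. B2m was 4117, 3708 and 4137 CPM in postSTC1, postSTC2 and postSTC5, with postSTC2 below the preSTC range of 3931 to 4623 CPM, and 15602 CPM in postSTC7. The difference was not called (log2 fold change 0.72 ± 0.41, SE, edgeR adjusted p = 0.243), and its sign rested on postSTC7, without which it was -0.08 (adjusted p = 0.722).

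Isg15 encodes a ubiquitin-like protein that is coupled to other proteins in the type I interferon response. It was 47.0, 26.8, 31.9 and 28.9 CPM in the preSTC libraries, and 81.3, 29.4, 22.7 and 17.9 CPM in the postSTC libraries. postSTC1 was above and postSTC5 and postSTC7 below every preSTC library (log2 fold change 0.17 ± 0.44, SE, edgeR adjusted p = 0.821). Without postSTC1 the value was -0.53 (adjusted p = 0.253). Irf7, the factor that amplifies type I interferon, ranked the postSTC libraries in the same order, with 175, 93.0, 80.4 and 72.9 CPM in postSTC against 91.3 to 129 CPM in preSTC (log2 fold change -0.03 ± 0.29, SE, edgeR adjusted p = 0.954; 0.11 without postSTC7, adjusted p = 0.842). Ifit3, whose product is an antiviral protein that works with other IFIT proteins, rested on 168 to 332 reads a library in these groups. It was 5.20 to 10.4 CPM in postSTC and 5.08 to 9.29 CPM in preSTC (log2 fold change 0.25 ± 0.41, SE, edgeR adjusted p = 0.711).

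**Figure D2:**
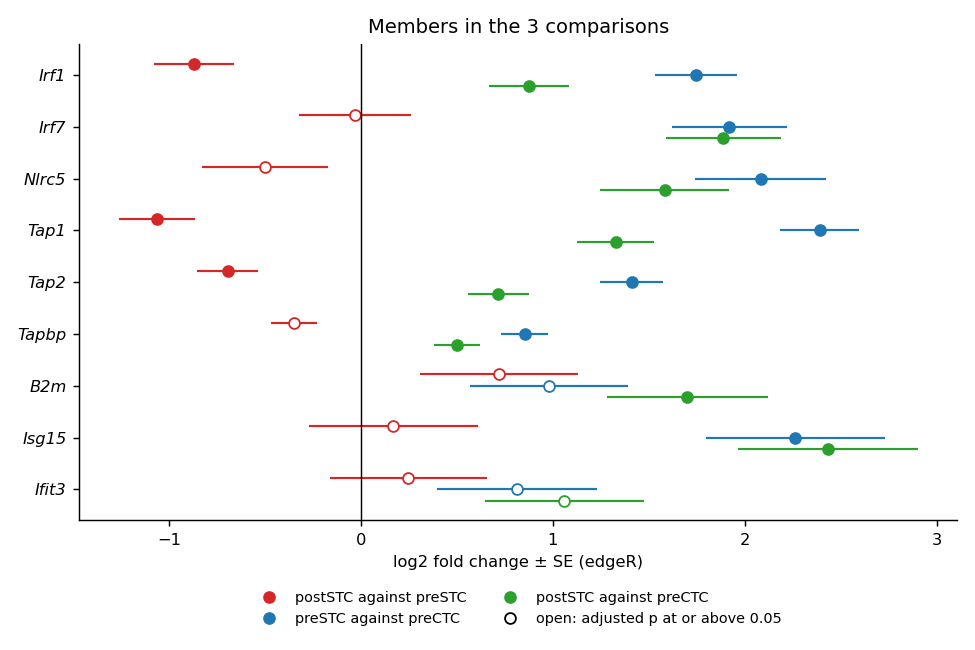
Log2 fold change of each member (x axis, with SE bars from edgeR) in the 3 comparisons, filled where the adjusted p was under 0.05. After against before the operation, only Irf1, Tap1 and Tap2 are filled, all below 0, while all filled points of the comparisons with preCTC are above 0.

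Ratios of read counts within a library do not depend on the scaling of libraries. The ratio of Tap1 to Irf7 counts was 1.5 to 1.79 in preSTC and 0.597, 0.811, 1.195 and 0.860 in the postSTC libraries, so that the groups did not overlap. The ratio of Irf1 to Irf7 lay between 2.01 and 3.05 in preSTC and between 1.00 and 1.97 in postSTC, again without overlap, while that of Tap2 to Irf7 was 1.02 to 1.36 and 0.526 to 1.13, with overlap. For Isg15 over Irf7, preSTC spanned 0.272 to 0.364 and postSTC 0.246 to 0.464, with overlap. These ratios were chosen after the values were seen and were not tested. The ratio of B2m to Tap1 counts was 20.0 to 28.3 in preSTC, 39.3, 49.1 and 43.1 in postSTC1, postSTC2 and postSTC5, and 249 in postSTC7.

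**Figure D3:**
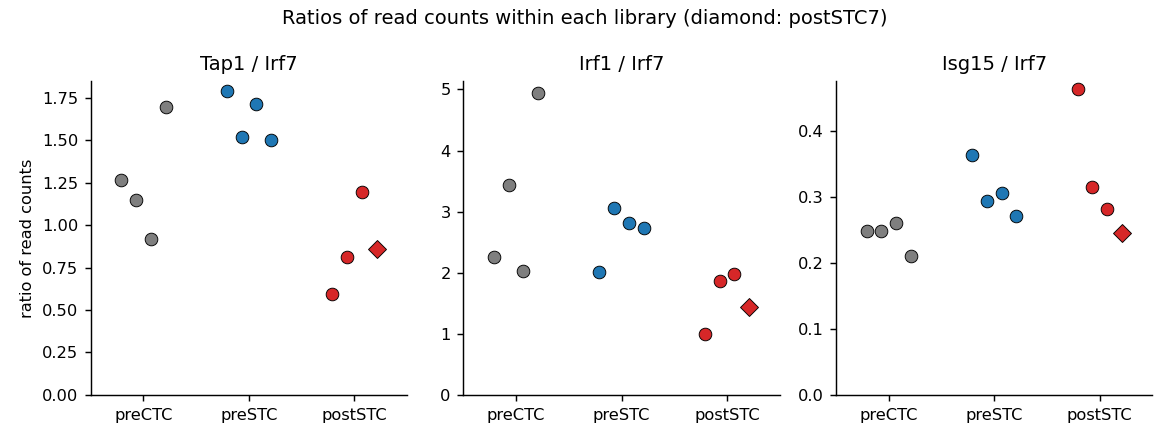
Ratios of read counts of 2 genes within each library, by group (y axes start at 0; the diamond is postSTC7). Tap1 over Irf7 and Irf1 over Irf7 are lower in all 4 postSTC libraries than in any preSTC library, and Isg15 over Irf7 overlaps between these groups.

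The replicate numbers 1, 5 and 7 occur in both postSTC and preSTC, and libraries of the same number deviated together. With the number as a block in the fit of 12 libraries, Tap1 (adjusted p = 0.0391) and Tap2 (0.0481) were still called in edgeR and Irf1 was not (0.0642). In the blocked fit of the 8 libraries compared, none of the 3 was called (edgeR adjusted p = 0.115 for Irf1, 0.0996 for Tap1 and 0.140 for Tap2), although their log2 fold changes were -0.97, -1.08 and -0.77. That fit called 66 genes in the whole table. Over all alternatives run, the adjusted p ranged from 0.000823 to 0.121 for Irf1, from 1.66e-05 to 0.0996 for Tap1 and from 0.000845 to 0.178 for Tap2, with a negative log2 fold change in each.

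Other genes of the pathway were counted in the same comparison. Of 24 further genes of peptide supply and class I loading, 7 fell and none rose. Lap3, an aminopeptidase gene, stood at 732 ± 67.7 CPM in preSTC and fell to 376 ± 119 CPM (SD, n = 4; adjusted p of edgeR 0.00738). The immunoproteasome subunit genes Psmb9 and Psmb10 had log2 fold changes of -0.93 ± 0.19 and -0.92 ± 0.18 (SE; adjusted p of edgeR 0.00806 and 0.0065). The third subunit gene, Psmb8, had a log2 fold change of -0.77 ± 0.35 and was not called (SE, edgeR adjusted p = 0.142). Psme1 and Psme2, which encode the proteasome activator PA28, fell as well (log2 fold change -0.64 and -0.75, edgeR adjusted p = 0.00731 and 0.0111).

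Of 20 genes for interferon receptors and signal transduction, 6 fell and none rose. Irf8, a factor of myeloid and B cells, was at 279 ± 49.9 CPM before and 120 ± 34.3 CPM after (SD, n = 4; adjusted p of edgeR 0.00254). The feedback inhibitor genes Socs1 and Socs3 had log2 fold changes of -1.05 and -1.68 (adjusted p of edgeR 0.00486 and 0.00239). Stat2 and Irf9, which act in the type I arm, were not called (log2 fold change -0.45 and -0.16, edgeR adjusted p = 0.0880 and 0.456). Neither were the receptor genes Ifngr1 and Ifnar1 (-0.21 and 0.17, edgeR adjusted p = 0.185 and 0.362).

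Of 59 other interferon-induced genes, 11 fell and 1 rose. The 6 with the largest falls included the interferon-inducible GTPase genes Ifi47 (log2 fold change -1.11), Igtp (-0.87) and Irgm (-0.79), with edgeR adjusted p of 0.00742, 0.0163 and 0.00803. The others were Lgals9, a galectin gene (-0.96), Ifi27l2b (-0.95) and Ddx58, which encodes the viral RNA sensor RIG-I (-0.84), with edgeR adjusted p of 0.033, 0.00801 and 0.0375. Ifi44 was the gene that rose, with 17.2 ± 2.21 CPM in preSTC and 25.6 ± 4.05 CPM in postSTC (SD, n = 4; adjusted p of edgeR 0.0151). The median log2 fold change was -0.23 in the supply and loading list, -0.07 in the receptor and signalling list and -0.24 in the interferon-induced list, against 0.04 over all genes. Without postSTC7 the lists held 9, 6 and 10 genes called lower. With the replicate block these were 6, 6 and 8 in the fit of 12 libraries and 0, 0 and 0 in the fit of 8 with edgeR. In the latter fit, 9, 7 and 24 genes had an unadjusted p under 0.05 in either direction. DESeq2 without a block called 8, 6 and 12 lower. Without TMM scaling, edgeR called 0, 2 and 0 lower, and 7, 5 and 14 genes had an unadjusted p under 0.05 in either direction. Counts at an unadjusted p, here and below, are of either direction and have no share over all tested genes beside them. Counts of genes called by DESeq2 or without postSTC7, here and below, have no such share beside them either.

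Of 32 rows for RT1 class I heavy chains, the rat's class I molecules, 25 were tested and 0 were called in postSTC against preSTC by edgeR or DESeq2, and 0 had an unadjusted p under 0.05. With the replicate block edgeR called 0 too, but 3 (12 libraries) and 6 (8 libraries) of the 25 had an unadjusted p under 0.05, and the median log2 fold change moved from -0.17 to -0.39 and -0.40. Without postSTC7 and without the block the median was 0.11. Of 5 class I-like genes outside the RT1 complex, 3 rose: Hfe, Cd1d1 and Azgp1, with log2 fold changes of 1.01, 1.09 and 3.35 (edgeR adjusted p = 0.0146, 0.0326 and 0.00763). Azgp1 is also on the list of seminal vesicle and prostate genes. Of these 5 genes, 2 were called without postSTC7, 1 without TMM scaling, and 1 and 0 with the replicate block in 12 and 8 libraries (edgeR, where 2 of the 5 had an unadjusted p under 0.05 in the fit of 8). The RT1 rows have near-identical copies and are uncertain as single genes. Their summed level was 1531 to 2844 CPM in preSTC and 941 to 2465 CPM in postSTC. The level of B2m was 1.63 to 2.69 times this sum in preSTC, 1.67 to 2.51 times in the postSTC libraries other than postSTC7, and 16.6 times in postSTC7. In that library the chaperone genes Hspa5 and Calr were high too, at 2130 and 2071 CPM against 512 to 613 and 912 to 1259 CPM in the other postSTC libraries. The part of the seminal transcripts of postSTC7 in these values was not tested.

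A few RT1 rows split the libraries by the replicate number of their titles, a pattern chosen after the values were seen. RT1-A3 was 8.09 to 12.6 CPM in the 3 libraries numbered 5, 1 from each group, and 42.5 to 171 CPM in the other 9. RT1-CE3 was 2.02 to 5.52 CPM in the 5 libraries numbered 7 or 9 and 16.2 to 180 CPM in the other 7. The libraries numbered 5 were the lowest or the highest 3 of all 12 for 3 of the 25 RT1 rows (12%) and 0.458% of all tested genes. For those numbered 1 this held for 1 RT1 row and 1.07% of all tested genes, and for those numbered 7 for 0 rows and 0.56%. For none of the numbers 1, 5 and 7 did it hold for any of the 9 members. The numbers 2 and 9 were not checked in this way. The labels do not tie libraries of one number to one animal.

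**Figure D4:**
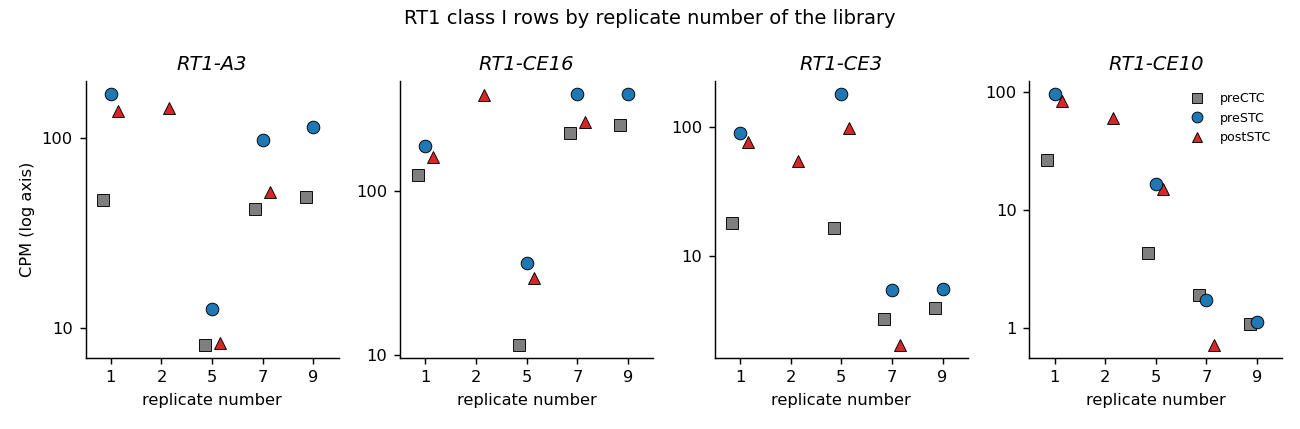
CPM (log axes) of 4 RT1 class I rows against the replicate number of the library (x axis), with 1 point per library and the group given by shape. In RT1-A3 and RT1-CE16 the libraries numbered 5 lie lowest in all 3 groups, and in RT1-CE3 and RT1-CE10 those numbered 7 and 9 do.

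**Figure D5:**
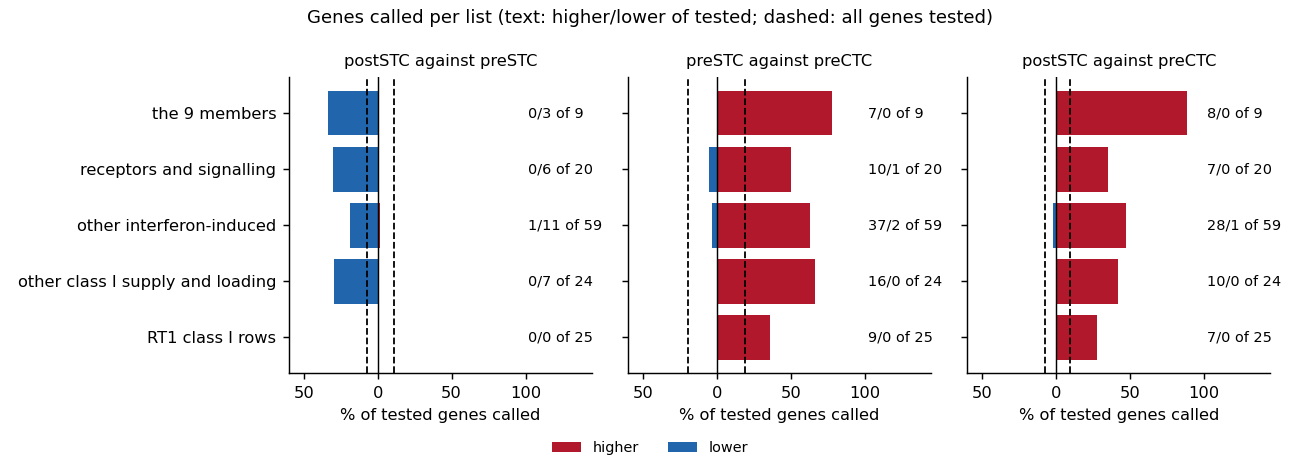
Share of tested genes called higher (red, right of 0) or lower (blue, left of 0) among the members, 3 pathway lists and the RT1 rows in each comparison, with the counts printed and dashed lines at the shares over all tested genes. In postSTC against preSTC all calls drawn here but 1 (Ifi44) lie on the lower side and the RT1 rows have none, and in the comparisons with preCTC most lie on the higher side.

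Immune cell markers were summed in the same libraries. The summed level of 17 T and NK cell markers was 526 to 679 CPM in preSTC, and 224, 428, 638 and 377 CPM in the postSTC libraries in the order 1, 2, 5 and 7. The general leukocyte gene Ptprc was 113 to 327 CPM in preSTC and 57.0 to 178 CPM in postSTC (edgeR adjusted p = 0.275). The 12 macrophage and dendritic cell markers summed to 1502 to 3910 CPM in preSTC and 982 to 4690 CPM in postSTC. In this sum Lyz2 alone was 1020 to 3381 and 666 to 3972 CPM. The 12 epithelial markers summed to 16777 to 21213 CPM in preSTC and 8411 to 17389 CPM in postSTC. No marker of these lists was at 0 in any library. The 10 smooth muscle markers summed to 3555 to 5542 CPM in preSTC and 6424 to 9699 CPM in postSTC, without overlap, and 6 of them were called higher and none lower. Of 8 fibroblast markers 4 were called higher, and of 8 endothelial markers 3, with none lower. In bulk samples, fewer cells of a type and less RNA per cell cannot be told apart, and the part of cell composition in the falls of Irf1, Tap1 and Tap2 was not tested.

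Of 16 listed genes of interferons and related cytokines, 7 were in the count table, so nothing can be said of the others. Of the interferon genes among these 7, Ifng was the only one with more than single reads. It had 28 to 31 reads in each preSTC library, 4, 1, 41 and 3 in the postSTC libraries in that order, and 3 reads in all of preCTC. The library with the most Ifng reads, postSTC5, had the most Nlrc5 in its group, a match picked after the values were seen. Irf1, Irf7, Tap1, Tap2, Tapbp, Isg15 and Ifit3 were highest in postSTC1, which had 4 Ifng reads, and B2m in postSTC7. For Ifng, the ratio of preSTC to preCTC was 43.0 (95% counting interval 14.4 to 212, counting error only, edgeR adjusted p = 0.00357). Its difference between postSTC and preSTC was not called (edgeR adjusted p = 0.337). Ifna1 and Ifnl1 had 1 read each over all 12 libraries. Il18, a cytokine gene that promotes interferon gamma release, was not called in postSTC against preSTC either (edgeR adjusted p = 0.413), and was lower in preSTC than in preCTC (13.2 ± 4.93 against 64.0 ± 19.2 CPM, SD, n = 4, edgeR adjusted p = 0.000378).

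The comparison of preSTC with preCTC set the 2 groups taken before surgery side by side. Of the 9 members, 7 were higher in preSTC and none was lower, where 38.7% of all tested genes were called, 19.1% higher and 19.6% lower. Tap1 stood at 29.3, 28.3, 40.6 and 36.9 CPM in preCTC1, preCTC5, preCTC7 and preCTC9, against at least 139 CPM in preSTC (log2 fold change 2.39 ± 0.21, SE, edgeR adjusted p = 7.48e-06). Isg15 was 5.76, 6.11, 11.6 and 4.60 CPM in the preCTC libraries, below the 26.8 CPM of the lowest preSTC library (2.26 ± 0.47 on the log2 scale, SE; adjusted p of edgeR 0.00266). The other called members were Nlrc5, Irf7, Irf1, Tap2 and Tapbp, with log2 fold changes of 2.08, 1.92, 1.75, 1.41 and 0.85. For 8 of the 9, all but Ifit3, the CPM of the groups did not overlap, as in 22.5% of all tested genes with preSTC higher.

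B2m was 1871 to 2468 CPM in preCTC, below every preSTC library, but was not called (log2 fold change 0.98 ± 0.41, SE, edgeR adjusted p = 0.0787). The 3 groups shared 1 estimate of the spread, and without postSTC7 it was called (adjusted p = 9.6e-05). Ifit3 was 2.75, 2.76, 7.94 and 1.86 CPM in preCTC, where preCTC7 lay within the preSTC range (edgeR adjusted p = 0.141). Without preCTC7 the log2 fold change was 1.45 (adjusted p = 0.00445).

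Of the 24 supply and loading genes, 16 were higher in preSTC than in preCTC and none was lower, led by Lap3 (log2 fold change 2.80), Psmb8 (2.32) and Psmb9 (2.23). Of the 59 other interferon-induced genes, 37 were higher and 2 lower. Ifit1bl stood at 2.69 ± 0.774 CPM in preCTC and 137 ± 12.4 CPM in preSTC (SD, n = 4; adjusted p of edgeR 7.81889e-06), although it has near-identical copies. Herc6, a ubiquitin ligase gene of the HERC family, was at 127 ± 34.6 CPM in preSTC (SD, n = 4) with a log2 fold change of 4.08 (edgeR adjusted p = 0.00014). Samhd1, Oas3 and Zbp1, all genes of antiviral defence, followed with log2 fold changes of 3.71, 3.36 and 3.15. Of the 20 receptor and signalling genes, 10 were higher and 1 was lower, and of the 25 RT1 rows 9 were higher. Without postSTC7 the supply list had 19 genes higher and the RT1 rows 13. Without TMM scaling the supply, interferon-induced and receptor lists and the RT1 rows had 12, 24, 8 and 2 higher. The T and NK cell markers summed to 103 to 217 CPM in preCTC, below every preSTC library, and the macrophage and dendritic cell markers to 598 to 896 CPM. In the latter sum Lyz2 alone was 138 to 355 CPM in preCTC and 1020 to 3381 CPM in preSTC. Of these 12 markers 5 were called higher in preSTC and 2 lower. The smooth muscle markers summed to 11410 to 18979 CPM against 3555 to 5542 CPM in preSTC. The part of cell composition in these differences was not tested.

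The comparison of postSTC with preCTC shares a group with each of the others. Of the 9 members, 8 were higher in postSTC, where 16.6% of all tested genes were called, 9.27% higher and 7.37% lower. For 6 of the 9 the CPM of the groups did not overlap, as in 9.54% of all tested genes with postSTC higher. Irf7 and Isg15, which had log2 fold changes of 1.92 and 2.26 in preSTC against preCTC, had log2 fold changes of 1.89 ± 0.30 and 2.43 ± 0.47 (SE, edgeR adjusted p = 0.00139 and 0.00459). Tap1, Irf1, Tap2 and Tapbp had means between those of preCTC and preSTC, at 1.33 ± 0.20, 0.88 ± 0.21, 0.72 ± 0.16 and 0.50 ± 0.12 above preCTC (SE, edgeR adjusted p = 0.000967, 0.0146, 0.0103 and 0.0146). Nlrc5 was higher by 1.58 ± 0.34 (SE, edgeR adjusted p = 0.00809). B2m was higher by 1.70, or by 0.91 without postSTC7 (edgeR adjusted p = 0.0170 and 0.000782), and missed the threshold without preCTC1 (0.0522). Ifit3 was not called (log2 fold change 1.06, edgeR adjusted p = 0.104) except without preCTC7 (1.70, adjusted p = 0.0057).

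Of the other lists, 10 of 24 supply and loading genes, 7 of 20 receptor and signalling genes, 28 of 59 interferon-induced genes and 7 of 25 RT1 rows were higher in postSTC than in preCTC. In the same order of lists, 10, 10, 32 and 11 were higher without postSTC7, and 3, 0, 10 and 1 without TMM scaling in edgeR. In the latter fit, 3 receptor and signalling genes had an unadjusted p under 0.05 in either direction. A single gene of these lists was lower, Trim25 (log2 fold change -0.37, edgeR adjusted p = 0.0297). With the fit restricted to these 8 libraries, 4 of the 9 members were called.

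Likeness to each member was described by Pearson's r of log2 CPM over the 12 libraries, among all tested genes that are no members. The libraries share the group differences above, so r is no separate result. The closest genes to Irf7 were Herc6 (r = 0.976) and Samd9 (0.975), and Samd9 was also the closest to Isg15 (0.973). The closest to Tap1 were Mocs1 and Lap3 (both 0.984) and Irgm (0.981). Those closest to Irf1 were Zc3h12d (0.982) and Stk17b (0.972), those to Nlrc5 were Maf (0.969) and Parp14 (0.96), and that to B2m was Lman1 (0.978). Plaur was closest to Tap2 (0.987), Rab8a to Tapbp (0.988) and Cxcl6 to Ifit3 (0.925).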

How the data were processed

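The authors deposited read counts per gene for 12 libraries, without pooling. The submitters' processing notes name fastp, HISAT2, HTSeq and the rat assembly mRatBN7.2, with no versions or settings. Whether counting used strand or multi-mapped reads is not stated there. The FPKM values deposited by the authors served for levels between genes and as an alternative. The series' design text describes a pig pipeline and was not used.

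Groups and replicate numbers came from the sample titles. Counts were fitted in R 4.3.3 with edgeR 4.0.16 (TMM factors, filterByExpr, quasi-likelihood F-test, 1 model over 3 groups), and p-values were adjusted by Benjamini and Hochberg over all 15704 genes tested. Each SE was derived from the log2 fold change and its F statistic. The script was tested on simulated data. limma 3.58.1 and DESeq2 1.42.0 gave alternatives. Members and gene lists were chosen with earlier results of these data known, so no test over a list is given. Genes were named from the called ones of each list, at most the 6 with the largest change per direction and comparison, besides Stat2, Irf9, Ifng, Ifngr1, Ifnar1, Ptprc and the immunoproteasome genes whatever their values. One listed gene is not reported here by name. Calr, Ifit1, Hoxb13, the single RT1 rows, and Hspa5 and Il18 where not called were named after their values were seen. Lists for B and plasma cells, fibroblasts, endothelium and colon were also fixed. In preCTC, preSTC and postSTC they summed to 222 to 349, 340 to 706 and 292 to 573 CPM for B and plasma cells, and 5666 to 8577, 2050 to 2690 and 2463 to 4789 CPM for fibroblasts. The sums were 263 to 359, 195 to 224 and 245 to 449 CPM for endothelium, and 2656 to 5093, 1540 to 1681 and 1089 to 2131 CPM for colon, where single genes differed more than the sum.

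The labels do not say what replicate numbers mean. Deviations from the group means, over all tested genes, correlated at 0.236, 0.158 and 0.168 between postSTC and preSTC libraries numbered 1, 5 and 7. The numbers were treated as a possible pairing of these groups. The main fit held no term for the number, so the p-values given first do not use this pairing. The replicate block was run as an alternative. Between preSTC and preCTC the numbers 1, 5, 7 and 9 gave 0.222, -0.0278, 0.171 and 0.145. Between postSTC and preCTC the numbers 1, 5 and 7 gave 0.22, -0.0159 and 0.0544. Number 5 was below 0 in both, so preCTC was not treated as paired with the other groups. The other numbers of preSTC and preCTC correlated much like those of postSTC and preSTC, so a link by number remains possible there too.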

Additional observations from a re-analysis of the deposited data

Results flagged for a closer look

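Within groups of 4 libraries, 27 sets of values (9 genes in 3 groups) were checked for a library set apart from the other three, which chance alone does for about 1 set in 20, and 3 sets were found. B2m in postSTC7 stood at 15602 CPM, with the next library at 4137 CPM. Irf7 in preCTC7 stood at 44.4 CPM, with the next at 24.6 CPM. Ifit3 in preCTC7 stood at 7.94 CPM, with the next at 2.76 CPM. Isg15 was also highest in preCTC7 within its group, at 11.6 CPM, without meeting the same criterion.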

How the results depend on the processing

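In postSTC against preSTC the members called were 3, and 1, 1 and 0 without TMM scaling and with limma on log2(FPKM + 0.1) and log2(FPKM + 1). These 3 settings scale by total counts, in which postSTC7 holds its seminal transcripts. With the replicate block 2 members were called in the fit of 12 libraries and 0 in that of 8 (edgeR), where 4 had an unadjusted p under 0.05. DESeq2 called 4. Leaving out single libraries gave 3 to 4. In preSTC against preCTC leaving out single libraries gave 7 to 8 members and each other alternative 7 or 8. In postSTC against preCTC the 8 members became 5, 3 and 3 under the same total-count settings, 4 with only the 8 libraries compared, 4 and 0 with the replicate block in 12 and 8 libraries, and 7 to 9 without single libraries.

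Over all genes, 2833 were called in postSTC against preSTC (1749 higher, 1084 lower), 848 without TMM scaling (671 and 177), 653 and 521 under the FPKM settings, 1746 and 66 with the replicate block in 12 and 8 libraries, and 1609 to 3684 without single libraries, with 1609, 1855 and 1681 without preSTC1, preSTC5 and preSTC7. In preSTC against preCTC 6077 were called (2995 higher, 3082 lower), 3973 without TMM scaling (1175 and 2798) and 3753 and 3824 under the FPKM settings. In postSTC against preCTC 2612 were called (1455 higher, 1157 lower), 1560 without TMM scaling (608 and 952), 1569 and 1668 under the FPKM settings, 1455 with only 8 libraries, and 1399 and 151 with the replicate block. Without TMM scaling the median log2 fold change of all genes was -0.18 in preSTC against preCTC and -0.20 in postSTC against preCTC.

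Directions turned in postSTC against preSTC for 3 members that were not called. Isg15 was -0.042 with limma voom, -0.18 and -0.17 under the FPKM settings, -0.022 and -0.11 with the replicate block, and -0.53 to 0.40 without single libraries. Irf7 ranged from -0.39 to 0.11 and B2m from -0.080 to 0.93 without single libraries. The cause of these turns was not tested. Between postSTC and preSTC each of 3 libraries with a shared number correlated best with its own number, and between preSTC and preCTC 3 of 4 did. In preSTC against preCTC 9 RT1 class I rows were called higher in 12 libraries without a block and 15 with it. With the block and only 8 libraries, 17 were called. The 2 blocked counts have no share over all tested genes beside them and are not read as a result about the RT1 rows. In postSTC against preCTC the replicate block left 4 supply, 4 receptor and 22 interferon-induced genes and 5 RT1 rows called higher in 12 libraries (edgeR). In the fit of 8 libraries these were 0, 0, 2 and 1. In the latter fit, 7 supply and 6 receptor genes had an unadjusted p under 0.05 in either direction. Ifit3 and Ifng rest on few reads, so small differences in them were not detectable at this depth.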

Other observations

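Further RT1 class I rows split the libraries by replicate number. RT1-CE16 was 11.5 to 36.7 CPM in the libraries numbered 5 and 126 to 395 CPM in the other 9. RT1-CE10 was 0.717 to 1.90 CPM in the libraries numbered 7 or 9 and 4.36 to 96.8 CPM in the other 7. RT1-N2 was 0 to 0.216 CPM in those numbered 7 or 9 and 1.43 to 28.1 CPM in the others. Reads may be split between near-identical copies of these genes. Ifit1 had 2477 reads in postSTC2 and 0 to 4 in each of the other 11 libraries, while Ifit1bl, a close relative, stood at 2.19 to 209 CPM over all libraries.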
